A study of Homo sapiens with 9 samples.

Results

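The 8 human genes that encode inhibitors of cyclin-dependent kinases (CDKs) were followed in U2OS, an established line from a human bone tumour (osteosarcoma), in which siRNA depleted NFKB2 or RELB. The genes, taken by symbol from every count table, were CDKN1A, CDKN1B, CDKN1C, CDKN2A, CDKN2B, CDKN2C, CDKN2D and CDKN3, 8 of 44608 listed entries. All 8 are listed in each table, and 6 held enough reads to be tested among 14815 genes. The other two, CDKN1C and CDKN2A, had no read in any library. The NFKB2 product is cut to the p52 subunit of NF-kB, which in the non-canonical pathway forms dimers with RELB. Cells of 1 line received 75 nM of a non-silencing siRNA (siNS), of an siRNA against NFKB2 (siNFKB2) or of one against RELB (siRELB), and RNA was taken 48 h later. Each group had 3 libraries of oligo-dT selected RNA. The labels do not say that replicates came from separate cultures. The p-values therefore reflect library-to-library spread, some of which may be technical.

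CDK inhibitors slow the cell cycle by binding CDKs or their cyclin complexes. The CIP/KIP members CDKN1A (p21), CDKN1B (p27) and CDKN1C (p57) bind cyclin-CDK complexes of G1 and S phase. The INK4 members CDKN2A (p16), CDKN2B (p15), CDKN2C (p18) and CDKN2D (p19) bind CDK4 and CDK6 and keep them from D-type cyclins, which leaves the retinoblastoma protein RB active. CDKN3 stands apart from both families. It is a phosphatase that removes an activating phosphate from CDK2, and its transcript is known to peak late in the cell cycle.

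Total counts ranged from 15011789 to 19279572 per library. NFKB2 kept 4.86%, 21.1% and 44.8% of its siNS mean in siNFKB2 replicates 1 to 3, and RELB kept 9.79%, 17.1% and 19.7% in siRELB, so depletion was uneven in siNFKB2. Of 6 mesenchymal and bone markers none was at 0, with a summed level of 5698.2 to 7259.4 CPM (read counts scaled to library depth with TMM factors) in siNS, 4705.2 to 5029.5 CPM in siNFKB2 and 5087.0 to 6118.7 CPM in siRELB. COL1A2 among them averaged only 1.07 CPM in siNS and 0.553 CPM in siNFKB2, so the sum is carried by other markers. Of these 6 markers 4 fell in siNFKB2 and 1 in siRELB, beside 13.5% and 0.81% of all genes. Their part in the members' changes was not tested. Epithelial markers summed to 3.1 to 4.31 CPM in siNS, 4.13 to 5.82 CPM in siNFKB2 and 5.74 to 6.67 CPM in siRELB. CDH1 among them was higher in siNFKB2 (log2 0.82, adjusted p = 0.0301) and in siRELB (1.18, adjusted p = 0.0352). CLDN7 was listed at 0, but it has a second entry like that of CDKN1C described further on, so its 0 is no reading. Blood markers summed to 5.56 to 7.89 CPM in siNS, 3.31 to 5.58 CPM in siNFKB2 and 5.31 to 7.89 CPM in siRELB, with CD3E at 0. HBB among them was lower in siNFKB2 (log2 -0.95, adjusted p = 0.0331). The part of these markers in the members' changes was not tested either. Deviations of the 3 libraries numbered 1 from their group means, over all tested genes, correlated with each other at 0.535 to 0.594. The differently numbered siNS replicate 2 and siNFKB2 replicate 3 correlated at 0.569, so these values alone do not set number 1 apart. Results are also given without the 3 libraries numbered 1. That fit called 6711 of 14951 genes for siNFKB2 against siNS, against 3869 of 14815 with all libraries. Smaller adjusted p in it are thus not particular to the members.

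Promoter sequence is shown for CDKN3, CDKN1A and CDKN2C, the members with the firmest fall, the only rise and the largest fall after NFKB2 siRNA. RefSeq (GRCh38.p14) gave 10 windows for 7 members, of which 250 bases before each transcription start were searched on both strands. No window was found for CDKN1C. Printed sequence stops before the first base of the window that GENCODE 29 places in an exon of the gene, and capitals mark every match to a searched motif. The CDKN3 stretch (chr14:54396757-54396848, plus strand) holds CCAAT and, on the minus strand, TTTGAA, the core of the element called CHR that is known from promoters of many G2/M genes. The CDKN1A stretch (chr6:36678464-36678657, plus strand) lies inside the GENCODE gene model, past its first start, and holds GGGCGG, the box bound by Sp1, in 2 places. For CDKN2C only a short stretch (chr1:50968564-50968591, plus strand) before the second of its 3 starts is shown, because it lies in an annotated exon. It holds, on the minus strand, TTCCCGCC, a form of the E2F site.
CDKN3: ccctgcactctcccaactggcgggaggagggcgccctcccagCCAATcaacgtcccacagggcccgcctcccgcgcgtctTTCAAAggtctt
CDKN1A: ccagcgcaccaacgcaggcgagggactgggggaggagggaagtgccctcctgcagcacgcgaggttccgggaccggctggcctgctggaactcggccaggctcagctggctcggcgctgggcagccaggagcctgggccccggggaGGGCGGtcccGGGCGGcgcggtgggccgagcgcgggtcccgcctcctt
CDKN2C: gagagcgggaGGCGGGAAtgagggcgcg

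The CHR letters lie 7 bases before the first CDKN3 exon of GENCODE 29. TTTGAA was in 1 of the 10 windows and in 13.3% of all 35116 RefSeq windows of that length. An E2F site, searched as TTTCCCGC, TTCCCGCC or TTTGGCGC, was likewise in 1 of 10 and in 3.94% of all. GGGCGG was in 7 of 10 windows (42.6% of all) and CCAAT in 4 of 10 (32.0%), among them windows of CDKN2D, which passed no test below, and of CDKN1B, which fell in siNFKB2. The NF-kB decamer consensus was in 0 of 10 windows and in 5.21% of all. A match describes the letters of a window and does not show that a factor binds there.

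In siNS cells CDKN1A was the most abundant inhibitor transcript. Levels of different genes are compared per kb of merged exon length in GENCODE 29, which includes all annotated isoforms. On that scale CDKN1A was at 138.6 ± 6.34 CPM per kb (SD, n = 3), CDKN3 at 66.8 ± 3.99, CDKN1B at 10.5 ± 2.39, CDKN2C at 7.71 ± 0.888, CDKN2D at 5.76 ± 1.43 and CDKN2B at 0.823 ± 0.182. CDKN1A and CDKN3 were clear of each other and of the rest in all libraries, and so was CDKN2B at the bottom. The ranges of CDKN1B and CDKN2C overlapped, as did those of CDKN2C and CDKN2D, so the order among these neighbours is not resolved. In siRELB the order was the same. In siNFKB2, CDKN2D (5.68 ± 0.474 CPM per kb) lay above CDKN2C (2.64 ± 0.845 CPM per kb) with no overlap between their libraries, while CDKN1B (6.19 ± 0.794) overlapped CDKN2D.

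The comparison of siNFKB2 with siNS asks which inhibitors change when NFKB2 is depleted. CDKN1A rose and CDKN1B, CDKN2C and CDKN3 fell, whereas CDKN2B and CDKN2D did not pass the test. Thus 4 of 6 tested members were called by edgeR's quasi-likelihood test at an adjusted p below 0.05, beside 26.1% of all genes tested. By direction, 1 of 6 rose and 3 of 6 fell, beside 12.6% and 13.5% of all genes. In the test of any difference among the 3 groups the same 4 passed, beside 30.0% of all genes. These 4 members had no overlap between the libraries of the groups, as did 37.4% of all genes. The members' median log2 fold change was -0.39, and that of all genes was 0.0. Without siNS replicate 3, without siNFKB2 replicate 2 or without siNFKB2 replicate 3 the count fell to 2, and CDKN2C and CDKN3 remained. Those fits called 2352, 2220 and 2647 genes in all, against 3869 with all libraries. Calls were thus lost over all genes too, and not in the members alone. The plot of levels by library shows the members' values.

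**Figure D1:**
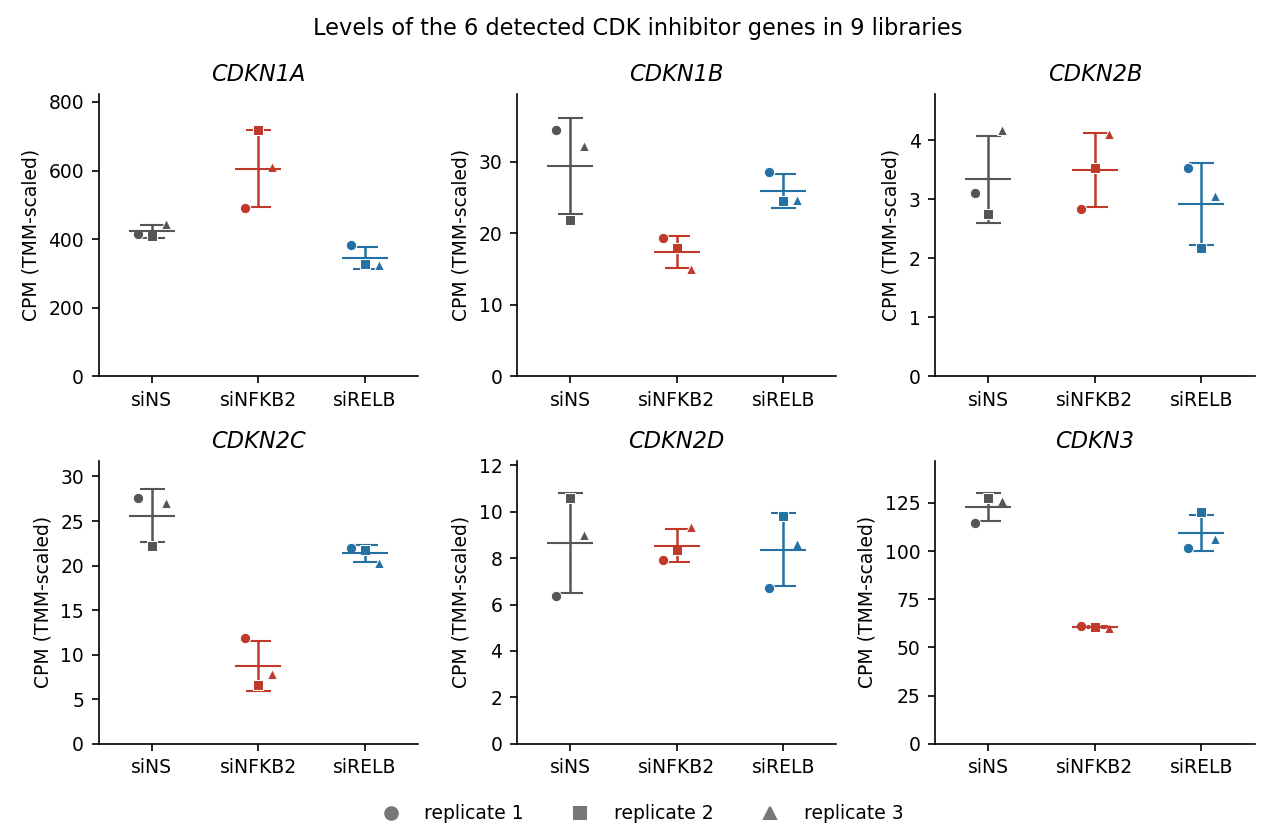
CPM (vertical axes, from 0, 1 scale per gene) of the 6 detected CDK inhibitor genes in siNS, siNFKB2 and siRELB. Symbols are libraries, shaped by replicate number, and horizontal lines with bars are the mean and SD of 3 libraries. All 3 siNFKB2 libraries lie above siNS for CDKN1A (490.3 to 717.1 against 408.9 to 444.8 CPM) and below it for CDKN1B, CDKN2C and CDKN3.

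Among the CIP/KIP genes, CDKN1A (chromosome 6, 36676460 to 36687339, plus strand, GRCh38, GENCODE 29) was at 414.4, 408.9 and 444.8 CPM in siNS replicates 1 to 3. It was at 490.3, 717.1 and 610.1 CPM in siNFKB2 and at 383.3, 327.6 and 325.5 CPM in siRELB. The 3 groups did not overlap, with siNFKB2 highest and siRELB lowest, and the siNFKB2 libraries spread most. CDKN1A rose 1.43-fold after NFKB2 siRNA, or 0.52 ± 0.14 (SE) in log2 units, with an adjusted p of 0.0212. The call was lost without siNS replicate 2 (adjusted p = 0.0576), siNS replicate 3 (0.0517), siNFKB2 replicate 2 (0.0854) or siNFKB2 replicate 3 (0.0576). It was also lost when the siRELB libraries were kept out of the fit (0.0521). Over 19 alternatives the log2 fold change stayed between 0.4 and 0.65 and the adjusted p between 0.000615 and 0.0854. Without the libraries numbered 1 it was 0.64 (adjusted p = 0.000615), in the fit that called 6711 genes. An antisense gene, DINOL, shares 4.79% of the CDKN1A exonic length, and whether counting used the strand is not given in the sources used here.

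CDKN1B (chromosome 12, 12715058 to 12722371, plus strand), whose protein holds cells in G1 and quiescence, was at 34.4, 21.8 and 32.2 CPM in siNS. It was at 19.3, 17.9 and 15 CPM in siNFKB2 and at 28.6, 24.5 and 24.6 CPM in siRELB. Every siNFKB2 library lay below the others, although siNS replicate 2 came close. The change after NFKB2 siRNA was -0.76 ± 0.184 (SE) in log2 units, with an adjusted p of 0.013. It lost its call without siNS replicate 3 (adjusted p = 0.0631), siNFKB2 replicate 2 (0.0543) or siNFKB2 replicate 3 (0.0636), within a range of 0.00167 to 0.0636 over 19 alternatives. Without the libraries numbered 1 it was -0.72 (adjusted p = 0.00629). CDKN1A and CDKN1B, both inhibitors of CDK2 complexes, thus moved in opposite directions.

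CDKN1C (chromosome 11, 2883213 to 2885773, minus strand) was listed at 0 in all 9 libraries. The tables also list it at a further placement, again at 0. Of 1247 protein-coding genes with such a further placement 63.6% were at 0 in every library, against 11.7% of 17903 without one. How reads with several placements were counted is not given in the sources used here, so this 0 does not show that the CDKN1C transcript is absent.

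Among the INK4 genes, CDKN2C had the largest change of all members. CDKN2C (chromosome 1, 50960745 to 50974633, plus strand) was at 27.6, 22.2 and 27.0 CPM in siNS. It was at 11.9, 6.56 and 7.81 CPM in siNFKB2 and at 22, 21.8 and 20.3 CPM in siRELB. The siNFKB2 libraries were far below all others, and replicate 1 was the highest of them. The siNFKB2 mean was 2.91-fold lower than siNS in the fit (log2 -1.54 ± 0.208 SE, adjusted p = 0.000767). All 19 alternatives kept the call, with log2 fold changes from -1.84 to -1.36, and without the libraries numbered 1 it was -1.78 (adjusted p = 6.35e-06). FAF1, the neighbour 482 bases before CDKN2C on the opposite strand, went from 118.3 to 92.1 CPM (log2 -0.36, adjusted p = 0.105) and did not pass the test. RNF11, 261.6 kb to the other side, rose (log2 0.88, adjusted p = 0.0427).

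CDKN2D (chromosome 19, 10566462 to 10569059, minus strand), the other INK4 gene at a similar level, gave 121 to 181 counts per library. It was at 6.36, 10.6 and 9.0 CPM in siNS, 7.94, 8.36 and 9.33 CPM in siNFKB2 and 6.71, 9.81 and 8.59 CPM in siRELB. The groups overlapped throughout, and the lowest 2 libraries of all 9 were replicates 1 of siNS and siRELB. The log2 fold change in siNFKB2 was -0.02, with a 95% interval from -0.5 to 0.46 (adjusted p = 0.962), so a change of the size seen for CDKN2C lies outside the interval.

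CDKN2A and CDKN2B lie side by side on chromosome 9, 7602 bases apart, and are known to be silenced or deleted together in many tumours. CDKN2A (21967753 to 21995301, minus strand), which encodes p16 and ARF, had 0 counts in 9 of 9 libraries, which at 3 counts allows 0.154 to 0.199 CPM per library. The antisense gene CDKN2B-AS1 shares 7.88% of the CDKN2A exonic length, and whether counting used the strand is not given in the sources used here. CDKN2A has no further placement in the tables, and U2OS is known as a line that lacks p16. CDKN2B (22002903 to 22009363, minus strand), an inhibitor induced by TGF-beta in epithelial cells, had 40 to 76 counts per library. It was at 3.1, 2.75 and 4.17 CPM in siNS, 2.84, 3.54 and 4.1 CPM in siNFKB2 and 3.53, 2.17 and 3.06 CPM in siRELB. The groups overlapped, and the log2 fold change in siNFKB2 was 0.06 with a 95% interval from -0.51 to 0.63 (adjusted p = 0.898). MTAP, the next gene on the other side of CDKN2A at 30.1 kb, was at 83.6, 63.8 and 70.4 CPM in siNS, siNFKB2 and siRELB. Its differences from siNS did not pass the test (adjusted p = 0.0628 and 0.4).

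CDKN3 (chromosome 14, 54396849 to 54420218, plus strand) had the smallest adjusted p of the members. It was at 114.3, 127.6 and 126.2 CPM in siNS, 60.9, 60.6 and 59.9 CPM in siNFKB2 and 101.8, 120.1 and 106.1 CPM in siRELB. The siNFKB2 libraries had a coefficient of variation of 0.847%, against 5.97% in siNS and 8.72% in siRELB. At 905 to 1134 counts per library, counting error alone is larger than 0.847%, so nothing is read from that closeness. NFKB2 itself ranged from 5.26 to 48.4 CPM in the siNFKB2 libraries. The fall was 2.03-fold, or -1.02 ± 0.107 (SE) in log2 units, with an adjusted p of 0.00029. It kept its call under all 19 alternatives, between -1.08 and -0.98. Without the libraries numbered 1 it was -1.08 (adjusted p = 8.35e-06). CDKN1A (116.0% of its siNS mean), CDKN1B (65.6%) and CDKN2C (46.6%) changed least in siNFKB2 replicate 1, where NFKB2 was lowest. The part of depletion depth in the members' changes was not tested.

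Depletion of the partner subunit RELB was set against siNS in the same fit. None of the 6 members passed edgeR's test, beside 2.02% of all genes called (1.21% higher and 0.81% lower). None had an unadjusted p below 0.05 either, and DESeq2 and limma-voom also called 0. CDKN1A had the smallest p, with a log2 fold change of -0.29, a 95% interval from -0.6 to 0.02 and an adjusted p = 0.327. Its siRELB libraries all lay below siNS, as did those of CDKN2C (log2 -0.26, interval -0.7 to 0.18). Libraries of these groups did not overlap for 22.5% of all genes. Without the libraries numbered 1 the CDKN1A difference was -0.39 and passed (adjusted p = 0.0252), in a fit that called 3390 genes. The other intervals were -0.59 to 0.21 for CDKN1B, -0.77 to 0.38 for CDKN2B, -0.52 to 0.43 for CDKN2D and -0.4 to 0.07 for CDKN3. Falls as large as those of CDKN2C and CDKN3 in siNFKB2 lie outside their intervals in siRELB.

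Set directly against each other, the knockdowns differed in the same 4 members, beside 26.6% of all genes called (3934, or 6054 with the replicate block, which called the same 4). By direction 1 was higher in siNFKB2 and 3 were lower, beside 12.2% and 14.3% of all genes. Libraries did not overlap for these 4, nor for 46.0% of all genes. CDKN1A was 1.75-fold higher in siNFKB2 than in siRELB (log2 0.81, SE 0.141, adjusted p = 0.00268). CDKN2C was lower (log2 -1.28, SE 0.207, adjusted p = 0.00181) and so was CDKN3 (log2 -0.85, SE 0.107, adjusted p = 0.000561). These 3 kept their calls under all 19 alternatives. CDKN1B was lower too (log2 -0.57, SE 0.184, adjusted p = 0.0426). That call was lost without siNS replicate 3 (0.0711), siNFKB2 replicate 2 (0.124) or 3 (0.162), and siRELB replicate 1 (0.128), 2 (0.0868) or 3 (0.0869), within adjusted p from 0.00925 to 0.162. CDKN2B (0.25, interval -0.32 to 0.83) and CDKN2D (0.03, interval -0.45 to 0.5) did not pass. The plot of differences sets the 3 comparisons side by side, and those with siNS share its libraries.

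**Figure D2:**
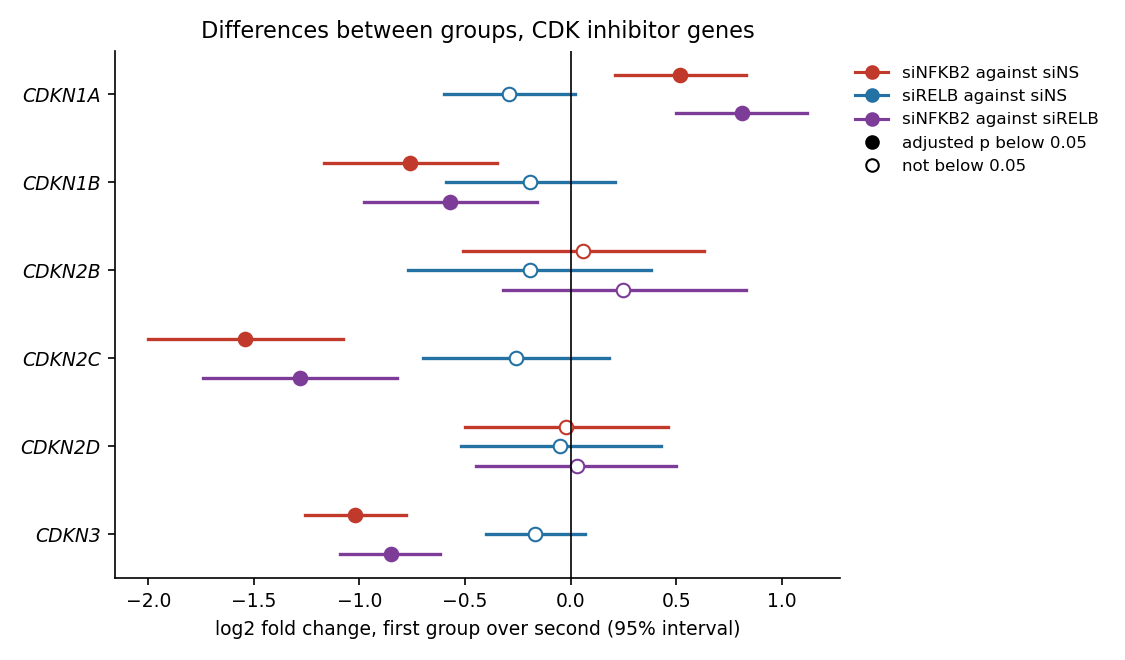
Log2 fold changes of the 6 tested members (horizontal axis) with 95% intervals, 1 row per gene and 1 colour per comparison. Filled points passed the test. CDKN2C, CDKN3 and CDKN1B lie left of 0 in both comparisons of siNFKB2, CDKN1A lies right of 0 in both, and no siRELB against siNS point is filled.

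CDKN1A made up a larger share of the inhibitor transcripts in the siNFKB2 libraries than in the others, a difference that the exact test at this size cannot call. Its share of the summed CPM per kb of the members in siNS replicates 1 to 3 was 60.8%, 59.4% and 60.5%. It was 76.4%, 83.1% and 80.8% for siNFKB2 and 61.8%, 55.0% and 57.4% for siRELB. All siNFKB2 libraries lay above all others, and siRELB overlapped siNS. The difference of 19.9 percentage points between siNFKB2 and siNS had a p of 0.1 in an exact two-sided permutation test, the smallest that 3 against 3 allows (0.15 adjusted over 3 comparisons). For siRELB against siNS it was -2.11 points (exact p = 0.4, adjusted 0.4) and for siNFKB2 against siRELB 22 points (exact p = 0.1, adjusted 0.15). The sum itself was 230.2 ± 9.59 CPM per kb in siNS, 247.0 ± 36.3 in siNFKB2 and 194.8 ± 8.71 in siRELB. CDKN3 took 27.8%, 30.8% and 28.5% of it in siNS and 15.8%, 11.7% and 13.2% in siNFKB2.

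**Figure D3:**
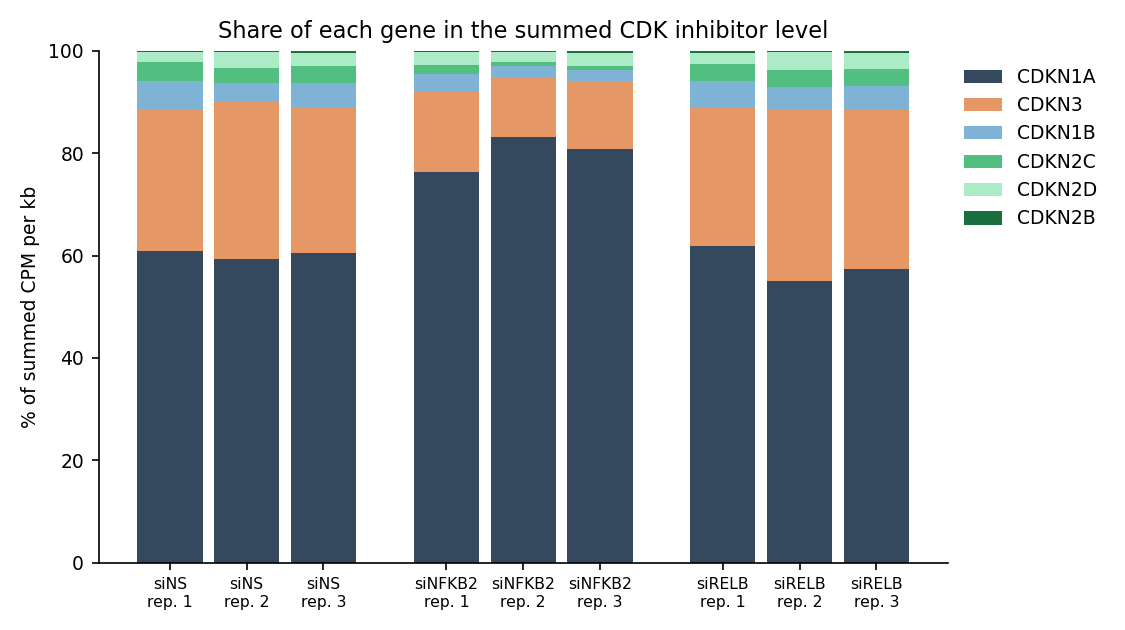
Share of each gene (colours, percent) in the summed CPM per kb of the CDK inhibitor genes, 1 bar per library. CDKN1A and CDKN3 fill most of every bar. The CDKN1A share is 76.4% to 83.1% in siNFKB2 and 55.0% to 61.8% in the other libraries.

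Genes of the cell cycle, which the inhibitors restrain, fell in the same siNFKB2 libraries. In a list of 15 G1/S genes all 15 fell, beside 13.5% of all genes. Their median log2 fold change was -1.09, and UHRF1 (-1.46), MCM3 (-1.41) and PCNA (-1.09), which act in S phase, were among them. In a list of 14 G2/M genes 11 fell, read against the same share. The median was -0.74, and CDC20 (-1.5) and KIF20A (-1.03), which act in mitosis, were among those that fell. On the log2 scale relative to the siNS mean, replicates 1 to 3 of siNFKB2 had G1/S medians of -0.87, -1.17 and -1.24, against -0.17, -0.15 and -0.18 in siRELB. The G2/M median was -0.64, -0.85 and -0.84 in siNFKB2 and -0.17, -0.11 and -0.08 in siRELB. In siRELB no G1/S gene passed, which is near the 2.02% of all genes called there. Of the G2/M genes AURKA, a mitotic kinase, fell in siRELB from 223.1 ± 3.8 to 127.4 ± 10.6 CPM (log2 -0.81, adjusted p = 0.0111), beside -0.72 in siNFKB2. Beside these, CDKN2C stood at -1.1, -1.96 and -1.71 in siNFKB2, CDKN3 at -1.01, -1.02 and -1.03, and CDKN1B at -0.61, -0.72 and -0.98. In bulk RNA, fewer cells in a phase and less RNA per cell cannot be told apart, and the part of cell cycle phase in the members' changes was not tested.

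**Figure D4:**
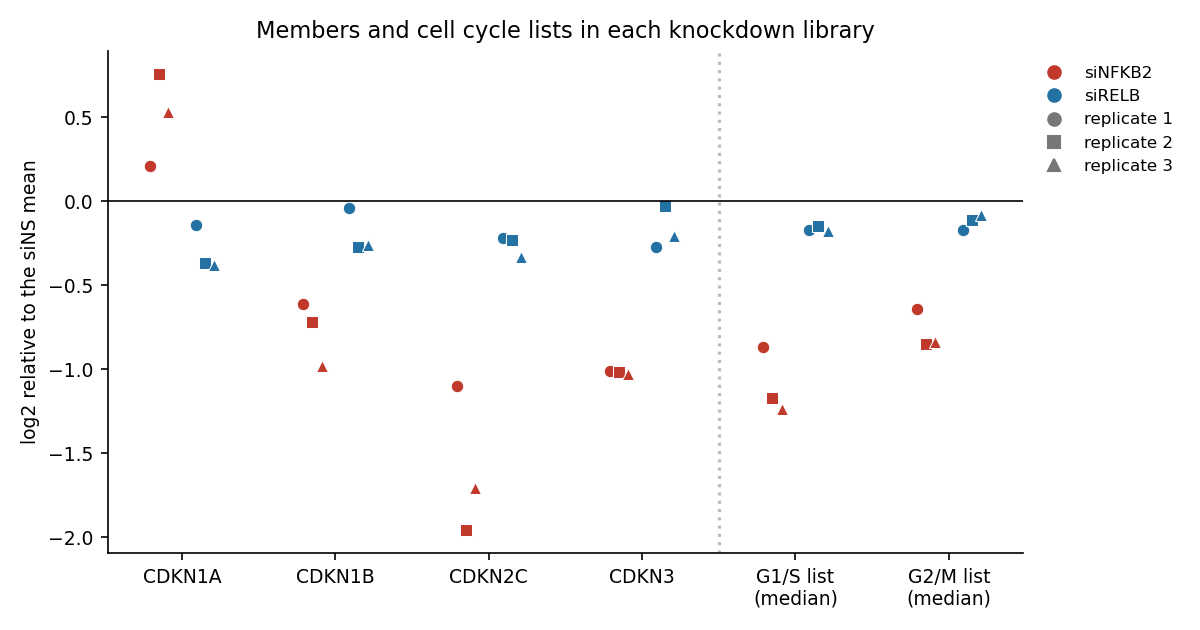
Log2 level relative to the siNS mean (vertical axis) of 4 members and the medians of 2 gene lists in the siNFKB2 and siRELB libraries. Each symbol is a library, shaped by replicate number. In siNFKB2 the CDKN3 points coincide near -1 while those of CDKN2C range from -1.96 to -1.1, and the siRELB points lie between -0.38 and -0.03.

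Of the cyclins and kinases that the inhibitors bind, 6 of 11 fell and 2 rose in siNFKB2, with a median of -0.57 (13.5% of all genes fell and 12.6% rose). CDK4, the kinase that INK4 proteins bind, fell from 249.9 ± 20.8 to 111.9 ± 33.6 CPM (log2 -1.16, adjusted p = 0.00184). CCNE1, the cyclin partner of CDK2 at G1/S, fell from 115.1 ± 9.51 to 51.5 ± 11.1 CPM (log2 -1.16, adjusted p = 0.000676). The mitotic kinase CDK1 fell too (log2 -0.83, adjusted p = 0.00199). CCND2, a D-type cyclin, rose from 307.3 ± 27.8 to 600.6 ± 93.3 CPM (log2 0.97, adjusted p = 0.00116). In siRELB none of the 11 passed, and the smallest adjusted p was that of CDK6 (0.0974, log2 -1.09). Of 9 tested RB and E2F genes 3 fell and 1 rose in siNFKB2 (median -0.13), read against the same shares. E2F1 (log2 -1.41), RBL1 (-0.94) and E2F5 (-0.89) fell, and E2F3 (0.97) rose. In siRELB E2F5 fell alone (-1.09, adjusted p = 0.0323).

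Among 13 tested transcriptional regulators of the inhibitors 3 rose in siNFKB2, where 12.6% of all genes rose, and not all of the others are reported here. KLF6 (log2 1.31, adjusted p = 0.000919), MYC (0.85, adjusted p = 0.00152) and SMAD3 (0.42, adjusted p = 0.0379) rose. MYC is known to repress CDKN1A and CDKN2B, and SMAD3 acts in TGF-beta signalling. In siRELB none of the 13 passed.

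Of 11 genes that serve turnover of the inhibitor proteins 3 passed in siNFKB2, all lower (median -0.08), a share near the 26.1% of all genes called, so the count says nothing particular of this list. SKP2, which marks the CDKN1B protein for degradation, fell from 92.0 ± 26.1 to 46.6 ± 13.5 CPM (log2 -0.98, adjusted p = 0.0118). DTL, which does so for the CDKN1A protein in S phase, fell from 104.7 ± 14.4 to 56.3 ± 9.44 CPM (log2 -0.89, adjusted p = 0.00255). UBAC1, which serves a ligase for the CDKN1B protein, was the other (-0.44, adjusted p = 0.025). A list for Polycomb control of the INK4 locus had 10 tested genes, among them KDM6B, whose product opposes Polycomb repression. Of these 10 genes 3 passed, all lower (median -0.13), again near the 26.1% of all genes called. These were CBX7 (log2 -1.36), CBX2 (-1.07) and EZH2 (-0.89). CDKN2A was at 0 and CDKN2B did not pass the test in the same libraries. In siRELB no gene of the turnover or Polycomb lists passed.

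The genes most alike to each member were taken from the 10615 genes that averaged 5 CPM or more, by Pearson correlation of log2 CPM over the 9 libraries. These values describe a pattern that the group differences dominate, and no test was made. For CDKN1A they were SDC4 (0.993), AEN (0.992) and CHPF2 (0.982). SDC4 and CHPF2 rose in siNFKB2 (log2 0.73 and 0.75), and AEN did not pass the test (0.11, adjusted p = 0.422). For CDKN2C they were PTK2B (0.995), MCM4 (0.994) and LRRCC1 (0.992), and for CDKN3 they were ASTN2 (0.996), TDP1 (0.992) and C11orf71 (0.99). CDKN1B was most like HAT1 (0.985), GNAI1 (0.983) and RRM2 (0.978). CDKN2D was most like SMIM26 (0.969), SWI5 (0.955) and RABEPK (0.952), none of which passed the test in either knockdown against siNS. Among the members, CDKN2C and CDKN3 were the most alike at 0.935, and CDKN1A ran against CDKN2C at -0.844 and against CDKN3 at -0.793.

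Of the nearest tested genes on either side of each of the 8 members, 5 passed in siNFKB2 against siNS and none in siRELB against siNS. Over all genes 26.1% and 2.02% were called, so these counts say nothing particular of the neighbours. CPNE5, 53.4 kb from CDKN1A, was at 1.36 CPM in siNS and rose (log2 1.04, adjusted p = 0.0217), as CDKN1A did, whereas SRSF3 on the other side did not pass (-0.2, adjusted p = 0.133). GPR19, 18.9 kb from CDKN1B, was at 4.2 CPM in siNS and fell (-1.35, adjusted p = 0.00836), as CDKN1B did. BMP4, 438.1 kb from CDKN3, fell (-1.2, adjusted p = 0.00144), and CNIH1, at 3.3 kb, did not pass (0.29, adjusted p = 0.196). AP1M2, 3.6 kb from CDKN2D, rose (0.5, adjusted p = 0.0331), and RNF11 beside CDKN2C is given above.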

How the data were processed

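The authors deposited whole-number read counts per gene symbol, not normalized, in 1 table for each of the 9 libraries. The submitters' processing notes list Trimmomatic 0.38, STAR 2.7.1a, Subread 1.6.4 and GRCh38.p13. How each was used, which annotation and which strand setting: not given in the sources used here. Depth was 15011789 to 19279572 counts, and limits from 0 counts cover counting error only. Genes were kept by filterByExpr, scaled by TMM and tested in 1 fit of 3 group means with edgeR 4.0.16 (R 4.3.3), by its quasi-likelihood test with Benjamini-Hochberg adjustment over 14815 genes. All adjusted p are from that test unless another is named. The SE is the absolute log2 fold change over the square root of F. DESeq2 1.42.0 and limma 3.58.1 served as alternatives, with other scalings, filters, the replicate block and each library left out. The procedure was tested on simulated data. Members and lists were chosen with earlier results of these data known. Named genes are the members, NFKB2, RELB, up to 4 genes per list by smallest p, the 3 genes most alike to a member, and neighbours. Correlations used log2 CPM with a prior count of 2. Some genes and 1 gene list are not reported here. Deviations of same-numbered siNFKB2 and siRELB libraries correlated at 0.535, 0.171 and 0.45. For siNFKB2 replicate 3 with siRELB replicate 2 the value was 0.258, and the other differently numbered pairs ran from -0.524 to -0.023. The labels state no pairing, and these values do not settle one by number.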

Additional observations from a re-analysis of the deposited data

How the results depend on the processing

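Of 446 values of single members under alternatives, 428 kept their side of the threshold, 17 lost a call and 1 gained one. No called value changed sign, whereas CDKN2B and CDKN2D, never called, ranged from -0.06 to 0.27 and from -0.2 to 0.16 (log2) for siNFKB2 against siNS. The lost calls were those of CDKN1A and CDKN1B named above, and CDKN1B in the test of any difference among the 3 groups, which called 4 members. With 1 library left out, the members called ranged from 2 to 4 for siNFKB2 against siNS. They ranged from 3 to 4 for siNFKB2 against siRELB and for any difference. For siRELB against siNS they were 0 in every case. For that comparison the fits called from 15 of 15213 genes (without siRELB replicate 2) to 1819 of 15169 (without siNS replicate 1). The next highest was 353 of 15155 (without siNFKB2 replicate 1). Where so few genes were called, the 0 among members cannot show that the result is stable. Without the 3 libraries numbered 1, siRELB against siNS called 1 member, CDKN1A. Deviations of same-numbered libraries correlated at 0.585, 0.055 and 0.091 between siNS and siNFKB2 and at 0.594, 0.376 and 0.044 between siNS and siRELB. Differently numbered pairs reached 0.569 (siNS replicate 2 with siNFKB2 replicate 3) and 0.426 (siNS replicate 2 with siRELB replicate 3). Numbers were not taken as pairs in the main fit. With the replicate block the members called were 4, 0 and 4 in the 3 comparisons, as without it, and no member's call changed. The genes called in all rose from 299 to 1570 for siRELB against siNS, from 3869 to 5944 for siNFKB2 against siNS and from 3934 to 6054 for siNFKB2 against siRELB. With 1 library left out the CDKN1A share differed by 18.4 to 21.8 points for siNFKB2 against siNS, 20.5 to 23.9 for siNFKB2 against siRELB and -3.97 to -0.585 for siRELB against siNS. Not divided by length, the difference between siNFKB2 and siRELB was 18.5 points. At 40 to 76 counts per library, CDKN2B leaves changes within its intervals undetectable. A mean of at least 5 CPM removed CDKN2B.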
